A study of Homo sapiens with 5 samples.

Results

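β-Catenin, the protein of CTNNB1, is the co-activator at the end of canonical Wnt signalling, and the loci of CTNNB1 and 6 other genes of this pathway (FZD4, LEF1, TCF7L2, AXIN2, CCND1 and MYC) were examined for ERG and p53 occupancy in VCaP cells. A peak was assigned to a gene when it overlapped the span of the gene, given in hg19 and rounded to 1 kb, widened by 50 kb on each side. The 7 windows measured 106 to 318 kb and 1148 kb in all. They held 28 of the 25939 deposited peaks, namely 18 of 14337 from ERG replicate 1, 9 of 11237 from ERG replicate 2, 1 of 227 from p53 replicate 1 and 0 of 138 from p53 replicate 2. VCaP cells are a line of human prostate cancer in which a TMPRSS2-ERG fusion places ERG under an androgen-responsive promoter and p53 is mutant. All samples were untreated cells of this one line, 2 precipitated with an ERG antibody and 2 with the p53 antibody DO-1, and no peak list of the input chromatin was used here. The study calls the replicates of its ChIP-seq biological, and the labels number them without naming cultures. Each list gives the position of a called peak and no enrichment, score or read count, so peak width was the only size to compare, the depth behind a peak is unknown from these files, and a missing peak means not called rather than not occupied. Neither p53 list matches in size a p53 peak set of the study, so every p53 value holds for the deposited lists alone.

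When a Wnt ligand binds a Frizzled receptor, the destruction complex built on Axin is held back, β-Catenin accumulates, enters the nucleus and binds the DNA-binding proteins LEF1 and TCF7L2, and genes such as AXIN2, CCND1 and MYC are switched on. AXIN2 closes a negative feedback loop, since it is itself a scaffold of the destruction complex. ERG is an ETS factor that recognises DNA around the core GGAA. Wild-type p53 binds its own response elements, and mutants of its DNA-binding domain largely lose them.

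The sequences below belong to the 2 genes where ERG peaks of both replicates lay at the 5′ end, CTNNB1 and FZD4. The study designed 4 probes of 25 bases over the CTNNB1 promoter for gel shift tests of p53 binding. They matched the RefSeq promoter of the gene (GRCh38.p14, chr3:41199255-41199554, plus strand, 250 bases before and 50 after the start site) end to end, between bases 118 and 19 before the start site. In probe 1, capitals mark the 14 bases that the study replaced in a mutated version of it, and in probe 2 they mark a GGAA.
probe 1: gCCCCCtcgcgCCCCGCCCCttgtc
probe 2: ctcgcgcggcGGAAcgctccgcgct
probe 3: gcgccggtggcggcaggatacagcg
probe 4: gcttctgcgcgacttataagagctc
Probe 1 lies 118 to 94 bases before the start site and holds 16 C among its 25 bases (84.0% G or C), and 1 promoter of the 35116 in the table has this exact sequence. In the CTNNB1 promoter as a whole it stands in capitals.
CTNNB1 promoter: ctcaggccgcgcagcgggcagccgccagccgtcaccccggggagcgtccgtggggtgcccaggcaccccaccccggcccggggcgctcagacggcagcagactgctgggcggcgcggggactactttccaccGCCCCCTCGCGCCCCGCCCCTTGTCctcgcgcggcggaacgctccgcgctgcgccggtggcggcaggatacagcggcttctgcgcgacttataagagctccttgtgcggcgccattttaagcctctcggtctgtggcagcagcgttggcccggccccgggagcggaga
FZD4 promoter: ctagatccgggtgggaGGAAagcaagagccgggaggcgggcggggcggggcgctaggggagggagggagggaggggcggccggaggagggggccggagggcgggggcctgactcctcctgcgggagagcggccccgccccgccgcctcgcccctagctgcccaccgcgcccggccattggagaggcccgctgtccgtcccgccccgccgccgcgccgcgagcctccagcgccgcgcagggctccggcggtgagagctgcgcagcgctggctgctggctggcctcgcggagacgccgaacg
In the FZD4 promoter (GRCh38.p14, chr11:86955346-86955645, minus strand), capitals mark GGAA.

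The ETS core GGAA, searched on both strands, occurred at 2 places in the CTNNB1 promoter. One, on the minus strand, ends 3 bases before probe 1, and the other, on the plus strand, begins 10 bases after it, inside probe 2. FZD4 had 1 match, 234 to 231 bases before the start site. Such matches are common, since 95.5% of all 300-base promoters hold at least 1 and 83.8% hold at least 2. The longer ETS sequence CCGGAAGT, found in 4.14% of promoters, and the TCF/LEF core CTTTGA, found in 12.9%, were in neither of these windows on either strand. Neither were the 6 bases CCGGAA, which contain the ETS core and occur in 17.2% of promoters. Both promoters were rich in G and C, at 74.0% for CTNNB1 and 79.7% for FZD4. These promoters come from another build than the peaks and were not laid over them base by base.

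At CTNNB1 (chromosome 3, 41240 to 41282 kb, plus strand), 1 ERG region and the only p53 peak of all 7 windows lay at the 5′ end of the gene, and the p53 peak was inside the ERG peaks of both replicates. ERG replicate 1 had a peak of 937 bp (chr3:41240426-41241362) and ERG replicate 2 a peak of 1053 bp (chr3:41240570-41241622). These are wide peaks, at the 98.0th and 99.5th percentile of width in their lists, and the region ranked 77 of 9366 shared ERG regions by the narrower of its peaks. Their overlap of 793 bp made up 66.2% of the joint region, and their midpoints were 202 bp apart. Across the genome, cut into consecutive tiles as long as this window (142 kb), 28.7% held at least 1 ERG region found in both replicates, so a shared region within such a distance is common, while one of this width is not. No other ERG peak of either list lay in the window.

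The p53 peak of replicate 1 measured 221 bp (chr3:41240869-41241089). All of it was covered by ERG in both replicates, and it took up 23.6% of the ERG peak of replicate 1 and 21.0% of that of replicate 2, with midpoints 85 bp and 117 bp apart. In p53 replicate 2 the nearest peak of chromosome 3 lay 14.1 Mb away, so in the deposited lists the p53 call at CTNNB1 rests on 1 of 2 samples. Without p53 replicate 1 no p53 peak is left in any window. The study reports a p53 peak in this promoter from its own set of peaks shared by both replicates. By sequential ChIP, which precipitates the chromatin again for the other factor, the study found ERG and mutant p53 on the same region in VCaP cells. In published breast cancer data it found mutant but not wild-type p53 at this promoter. In another prostate cancer line, the study reports that knockout of mutant p53 removed it from the promoter and lowered expression of the gene. The study also reports p53 binding there by ChIP-qPCR, and binding of the first probe in gel shift tests. The width of the replicate 1 peak was below the median of its list (231 bp) and equal to the median of the peaks of that list that did not recur (221 bp, against 309 bp for those that did). Of the 86 peaks of that list within 25 bp of its width, 9.30% recurred in replicate 2. A p53 region is rare in a stretch of this length, as 1.27% of the 142 kb tiles held one. Overlap of p53 with ERG is not rare in these lists, since 40.5% of the 328 p53 regions met a shared ERG region, as did 72 of the 190 p53 peaks found in replicate 1 alone (37.9%). Seen from ERG, 7 of the 77 shared regions at least as wide as that of CTNNB1 met a p53 region (9.09%). CTNNB1 itself is among these 7. Of all 9366 shared regions 132 did (1.41%), and the larger extent of wide regions was not allowed for.

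**Figure D1:**
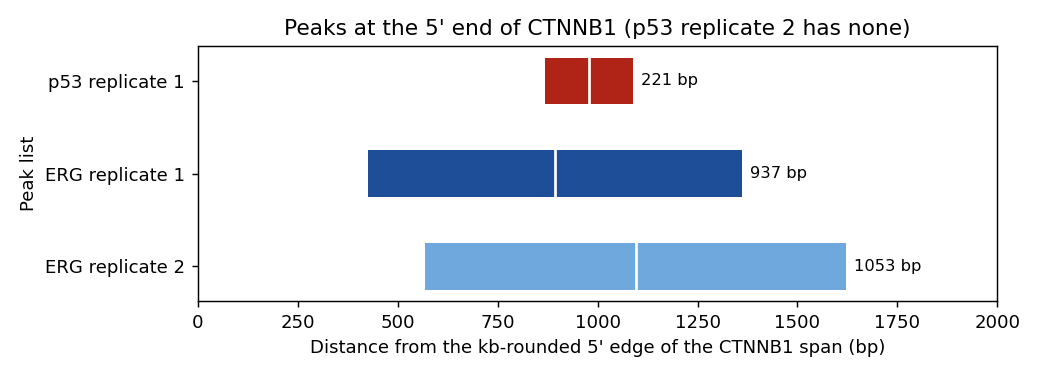
Extent of the peaks at the 5′ end of CTNNB1 by list (y axis), in bp from the 5′ edge of the span, which is rounded to 1 kb (x axis). Bars run from peak start to peak end, with the midpoint in white, and the 221 bp p53 peak lies within the ERG peaks of 937 bp and 1053 bp.

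FZD4 (chromosome 11, 86656 to 86667 kb, minus strand), a Frizzled receptor of Wnt ligands, was the only window with more than 1 ERG region in which both replicates called every one. It held 3 regions, and 24.3% of the 111 kb tiles held at least 1 shared region and 2.21% at least 3. The first lay 0.3 kb before the 5′ edge of the span, with peaks of 374 bp in ERG replicate 1 (chr11:86667146-86667519) and 287 bp in ERG replicate 2 (chr11:86667126-86667412), that is, at the end of the gene whose promoter is printed above. Whether these peaks cover the printed bases was not examined, as the edge is rounded to 1 kb and the builds differ. A second lay beyond the 3′ edge, 13.7 kb from the 5′ edge (384 bp at chr11:86653083-86653466 in replicate 1 and 399 bp at chr11:86653135-86653533 in replicate 2), and the last lay 44.4 kb before the 5′ edge (chr11:86711177-86711526 and chr11:86711240-86711577, 350 bp and 338 bp). None stood out by width, as the narrower peak of each exceeded that of 42.4% to 69.5% of all shared regions. Midpoints agreed to between 57.0 and 63.5 bp. No region lay within the span of 11 kb itself, so all 3 depend on the flank. Restricted to peaks at or above the median width of their list, 1 of the 3 shared regions was left, since the peaks of 350 bp in replicate 1 and 287 bp in replicate 2 fell short of it.

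LEF1 and TCF7L2, the DNA-binding partners of β-Catenin, had ERG peaks but no region found in both replicates. LEF1 (chromosome 4, 108968 to 109090 kb, minus strand) had 4 peaks in ERG replicate 1 and 0 in ERG replicate 2, whose nearest peak was 482 kb from the span. Those of replicate 1 measured 316 bp (chr4:109088781-109089096, 1.1 kb inside the 5′ edge), 243 bp (chr4:109094371-109094613, 4.5 kb before it), 273 bp (chr4:108993413-108993685, within the span) and 231 bp (chr4:108954451-108954681, past the 3′ end). All were narrower than the list median of 351 bp. Peaks of replicate 1 within 25 bp of these widths recurred in 35.4% to 59.3% of cases over the whole list, so that narrow peaks missing from replicate 2 are common. Of tiles as long as the LEF1 window (222 kb), 37.8% held a shared region. TCF7L2 (chromosome 10, 114710 to 114928 kb, plus strand), the longest of the 7 spans, had 1 peak in each replicate at different places. That of ERG replicate 1 measured 405 bp (chr10:114766064-114766468, 56.3 kb inside the gene), and that of ERG replicate 2 measured 225 bp (chr10:114706610-114706834, 3.3 kb before the 5′ edge), and their midpoints were 59.5 kb apart. In list 1, 76.7% of the peaks as wide as the first recurred. A shared region was found in 46.2% of the 318 kb tiles.

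AXIN2 (chromosome 17, 63524 to 63558 kb, minus strand), the feedback inhibitor and a commonly used readout of β-Catenin activity, had no ERG or p53 peak of any list in its window. The nearest ERG peaks were 153 kb from its span in replicate 1 (378 bp, chr17:63371090-63371467) and 126 kb in replicate 2 (207 bp, chr17:63397815-63398021). Such a gap is usual, since 60.2% of the 134 kb tiles held no ERG region of either list and 27.6% held a shared one.

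CCND1 (chromosome 11, 69455 to 69470 kb, plus strand), which encodes cyclin D1, the partner of the G1 kinases CDK4 and CDK6, had the most ERG regions. It had 5 peaks in ERG replicate 1 and 3 in ERG replicate 2, and 3 regions were shared. Among the 115 kb tiles 24.9% held at least 1 shared region and 2.33% at least 3. The widest lay at the 3′ end of the span, 14.4 kb from the 5′ edge, with 563 bp in replicate 1 (chr11:69469188-69469750) and 742 bp in replicate 2 (chr11:69469033-69469774), and its narrower peak exceeded that of 90.9% of all shared regions. The others followed downstream at 35.1 kb (464 bp at chr11:69489855-69490318 and 336 bp at chr11:69489938-69490273) and 60.6 kb (413 bp at chr11:69515419-69515831 and 401 bp at chr11:69515408-69515808). Their midpoints agreed to within 19.0 and 17.0 bp, the closest of the 8 shared regions. The 2 regions nearest the 5′ edge were in ERG replicate 1 alone, one of 226 bp at 1.1 kb before it (chr11:69453823-69454048) and one of 370 bp at 2.7 kb inside (chr11:69457564-69457933). The shared regions of CCND1 thus began at the far end of the gene.

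MYC (chromosome 8, 128748 to 128754 kb, plus strand), a transcription factor that promotes growth and division, had 4 peaks in ERG replicate 1 and 1 in ERG replicate 2, with 1 shared region. It lay 27.8 kb from the 5′ edge, beyond the short span of 6 kb, with 460 bp in replicate 1 (chr8:128775597-128776056) and 429 bp in replicate 2 (chr8:128775644-128776072). A shared region was found in 23.5% of the 106 kb tiles. The remaining peaks of replicate 1 measured 272 bp at 0.9 kb before the 5′ edge (chr8:128747001-128747272), 298 bp at 41.1 kb (chr8:128788941-128789238) and 225 bp at 47.0 kb (chr8:128794853-128795077), and were all below the list median. In the windows of CCND1 and MYC, the region nearest the 5′ edge was called in ERG replicate 1 alone. The regions called in both replicates lay downstream of it. For MYC this rests on 1 shared region, and with a flank of 10 kb there were 0. At LEF1, too, the region nearest the 5′ edge was in ERG replicate 1 alone. The nearest peaks of CCND1 and MYC were narrow. Of replicate 1 peaks within 25 bp of their widths, 34.2% (CCND1) and 45.7% (MYC) recurred over the whole list. Absence from replicate 2 is thus common at such widths. The other CCND1 region of replicate 1 alone, of 370 bp, was wider than the list median of 351 bp. Of replicate 1 peaks within 25 bp of its width, 73.2% recurred.

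**Figure D2:**
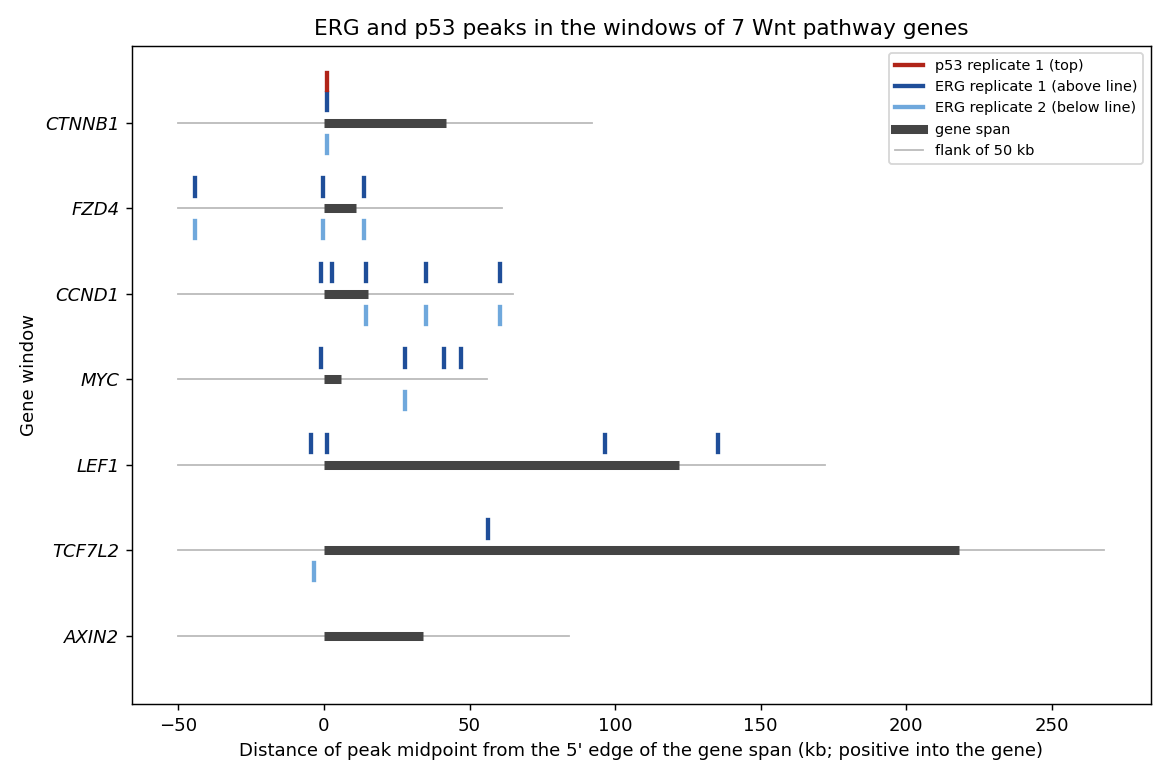
Peaks in the 7 gene windows (y axis) by distance of the peak midpoint from the 5′ edge of the span in kb (x axis, positive into the gene). Thick lines are gene spans, thin lines flanks of 50 kb, and ticks are single peaks (p53 replicate 1 at the top, ERG replicate 1 above and ERG replicate 2 below the line); ticks on both sides of the line at 1 place are the 8 shared regions.

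Over the 7 windows, merging of overlapping ERG peaks gave 19 regions, of which 8 were shared (42.1%), 10 came from replicate 1 only and 1 came from replicate 2 only. The share in both was 58.2% over all 16095 ERG regions. Shared regions lay at CTNNB1, FZD4, CCND1 and MYC, and none lay at LEF1, TCF7L2 or AXIN2. ERG regions were denser in the windows than over the genome between the outermost peaks, with 1.66 against 0.536 regions per 100 kb, and 0.697 against 0.312 for shared ones. The genome figure includes stretches without genes and stretches to which reads do not align, and ERG density was not compared with that around other genes. Only 2 of the 8 shared regions (CTNNB1 and the widest of CCND1) touched a gene span. With no flank 6 ERG peaks of replicate 1, 2 of replicate 2 and these 2 shared regions remained, and with a flank of 10 kb the numbers were 11, 5 and 4.

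**Figure D3:**
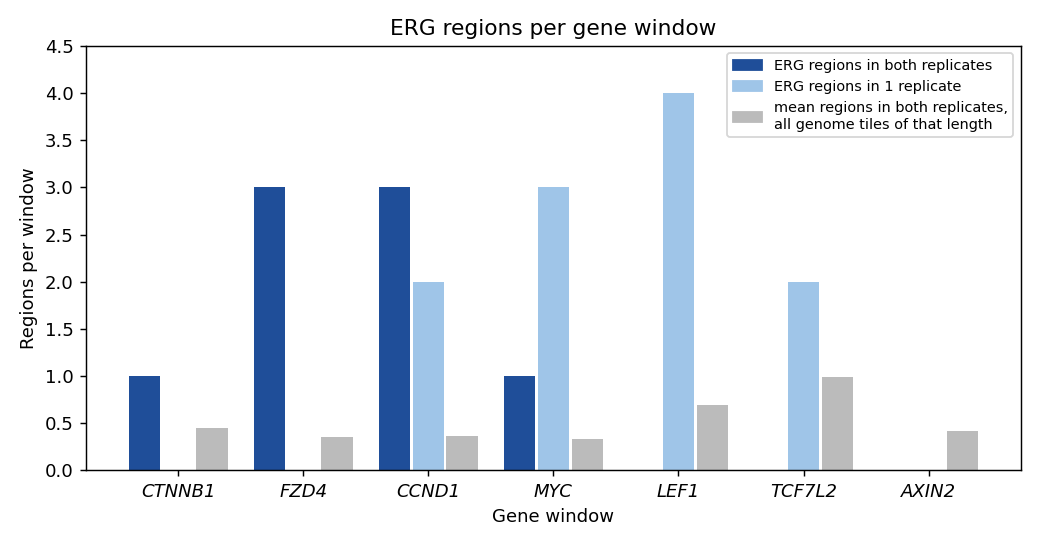
ERG regions (y axis, regions per window) in each gene window (x axis), as regions in both replicates, regions in 1 replicate, and the mean number of regions in both replicates over all genome tiles of the same length. FZD4 and CCND1 had 3 regions in both replicates each, and LEF1 had 4 in 1 replicate and 0 in both.

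Nearly all regions found in 1 replicate came from ERG replicate 1. Of its 18 peaks in the windows, 8 (44.4%) overlapped a peak of replicate 2, against 65.4% over its whole list. Of the 9 peaks of ERG replicate 2, 8 (88.9%) overlapped a peak of replicate 1, against 84.2%. Of the 10 peaks of replicate 1 that did not recur, 4 were at LEF1, 3 at MYC, 2 at CCND1 and 1 at TCF7L2. They measured 225 to 405 bp with a median of 272.5 bp, and the 8 that recurred 350 to 937 bp with a median of 436.5 bp. Over the whole list the medians were 283 bp and 403 bp. In replicate 2 the 8 recurring peaks measured 287 to 1053 bp with a median of 400 bp, against 326 bp for all recurring peaks of that list. Among replicate 1 peaks, the ranges of recurring and other peaks overlapped in width only through the 405 bp peak of TCF7L2 and the 370 bp peak of CCND1. Taken over all peaks in the windows, the median width was 360 bp in replicate 1 and 399 bp in replicate 2, against 351 bp and 306 bp in the whole lists.

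**Figure D4:**
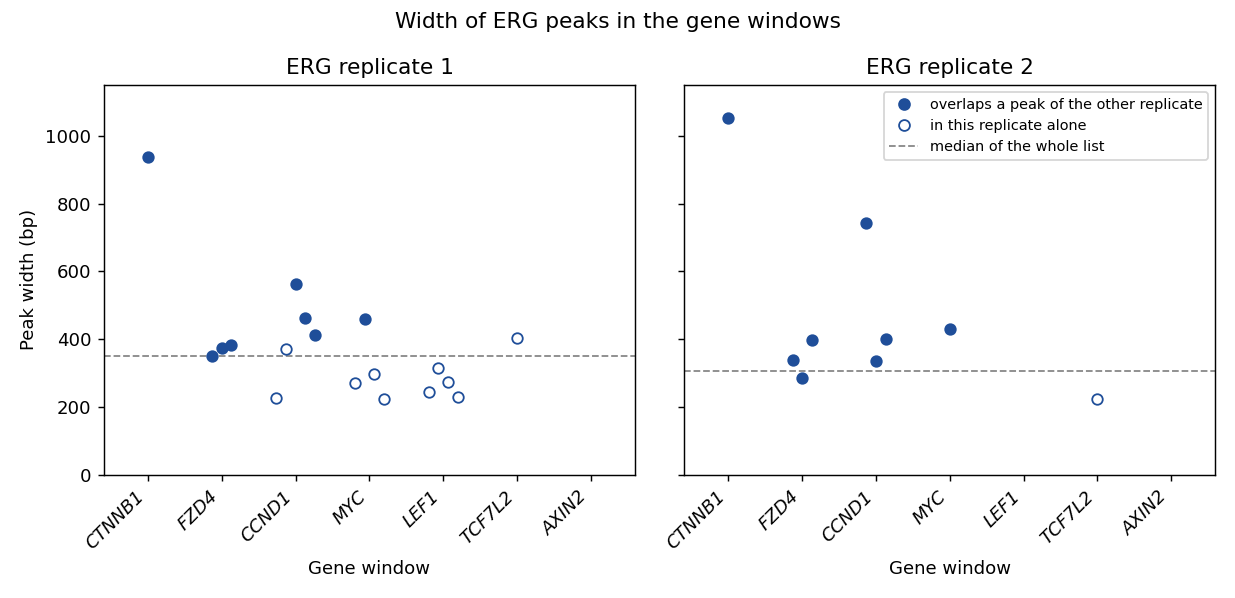
Width in bp (y axis, from 0) of every ERG peak in the gene windows (x axis), by replicate. Filled points overlap a peak of the other replicate, open points do not, and dashed lines mark the medians of the whole lists (351 bp and 306 bp); the 2 CTNNB1 peaks are the widest, and all 8 recurring peaks of replicate 1 measured at least 350 bp.

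At the 5′ ends, ERG replicate 1 had a peak midpoint within 2 kb of the edge at 5 of the 7 genes (CTNNB1, LEF1, FZD4, CCND1 and MYC), where 1.84% of 4 kb tiles of the genome held one. ERG replicate 2 had one at CTNNB1 and FZD4, where 1.44% of the tiles did. Hence 2 genes had a shared region there. Within 1 kb the shared region of FZD4 alone remained, since that of CTNNB1 lay 1.0 kb inside an edge that is rounded to 1 kb. Which of these 2 regions lies nearer its start site is therefore not settled here. The study places its ERG and p53 peaks of CTNNB1 in the promoter. Start sites in general were not compared, because no hg19 gene annotation was used here.

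Beyond CTNNB1, no window held a p53 peak. With so few p53 peaks this is what most stretches of the genome show. Between 0.950% (MYC) and 2.74% (TCF7L2) of tiles as long as the 6 other windows held a p53 region. Distances to the nearest p53 peak were not compared with those of other genes. The nearest p53 peaks of replicate 1 were 0.608 Mb from AXIN2, 0.633 Mb from FZD4, 2.88 Mb from MYC, 3.43 Mb from LEF1, 3.77 Mb from CCND1 and 9.58 Mb from TCF7L2. In replicate 2 they were between 3.77 Mb (CCND1) and 51.9 Mb (TCF7L2) away. The nearest p53 peaks of CCND1 were 1 site called in both replicates (chr11:65686649-65686878 and chr11:65686676-65686931). No test was run on the windows, as the genes are few and were chosen with results of these lists known, and the values describe the deposited lists.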

How the data were processed

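ERG and p53 were each precipitated from 2 samples of VCaP cells. The authors called peaks with MACS2 and deposited 1 list per sample. The submitters' processing notes name CASAVA 1.4, Bowtie2 2.3.3.1 and hg19, whereas the study's own methods differ in the aligner version and mix builds, so hg19 follows the notes. Which threshold made the p53 lists is not settled by the sources used here. Each deposited line holds 4 columns (chromosome, start, end and peak name).

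Peaks were assigned by overlap of at least 1 bp with the widened spans, and ERG peaks were merged where they overlapped. Distances were taken from the 5′ edge of the span, with gene strand from GENCODE. As background, each chromosome was cut between its outermost peaks into consecutive tiles of the length of each window. Starts are counted from 1. Promoters are those of RefSeq (GRCh38.p14), where CTNNB1, LEF1, TCF7L2 and FZD4 had entries, and probe sequences are from the study. Only promoters of genes with a shared ERG region within 2 kb of the 5′ edge were to be printed. All 7 genes are named. The genes were chosen with earlier results of these data known. A wider list of Wnt genes needs an hg19 annotation and was not analysed here. The overlap functions were tested on simulated data with planted overlaps. Python 3.11.15 and matplotlib 3.10.9 were used.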

Additional observations from a re-analysis of the deposited data

How the results depend on the processing

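Of 36 alternatives for values over all windows, 22 moved a value little (a count by at most 1.5 times, a share or width by less than the spread between replicates) and 14 moved it further. Of 72 for single genes and the number of genes with a shared region, 58 moved little and 14 further. The 58 include settings at AXIN2, LEF1 and TCF7L2 under which a count of 0 stayed 0. The spread between replicates 1 and 2 was wide, at 31.4 points for the share of recurring ERG peaks, and 27.6 bp for width. A shift of that share from 59.3% to 75.0%, for peaks at or above the median width, therefore counted as little. With no flank, 6 and 2 ERG peaks (replicates 1 and 2) and 2 shared regions remained, and with 10 kb 11, 5 and 4. Restriction to peaks at or above the median width of their list left 9 ERG peaks of replicate 1, 0 p53 peaks and 1 of the 3 shared regions of FZD4. The median width was 407 bp over recurring ERG peaks alone and 370 bp over all. With 1 ERG list left out, between 9 and 18 regions were counted, since all peaks of the other list then count, and between 2 and 5 genes had a peak at the 5′ end. Leaving out a p53 list gave 0 to 1 p53 peaks. Same-numbered replicates gave 0 places held by both factors for number 2, and a 5′ distance of 1 kb left 1 gene. When midpoints had to lie within 100 bp, 7 shared regions remained and CTNNB1 had 0. A flank of 100 kb gave FZD4 4 shared regions and MYC 2. No paired analysis was possible because no test was run to which a block could be added, and the match of numbers given above is a count alone. Gene names follow distance alone, copy number was not analysed, and depth limits what a missing peak means.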
